A study of Mus musculus with 2 samples.

Results

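The 42 genes described here run mitosis: the cyclins and kinases that start it, the spindle checkpoint, the kinesin motors, the centromere and kinetochore proteins, and the transcription factors Foxm1 and Mybl2. They were taken from a list of symbols and matched to the probe sets of the Affymetrix Mouse430_2 array that carry a single gene symbol. Of the 42, 41 had such a probe set and 40 were measured on both arrays, out of 18193 genes on the array and 11294 measured on both. Ccnb1, which encodes cyclin B1, had no probe set with a single symbol in the annotation used here. Kif15, a kinesin, read 5.22 on the knock-out array and 4.82 on the wildtype array, below the floor on both, and is left out of the counts.

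The arrays held RNA of mouse embryonic fibroblasts (MEFs), cells grown out of dissociated embryos, from Malat1 knock-out and from wildtype mice, with 1 array per genotype. Malat1 is a long noncoding RNA of the nucleus. Both groups were C57BL/6 embryos of embryonic day 13.5, kept in culture for 2 weeks with no treatment, so that genotype is the only difference the labels give. How many embryos gave each culture, and which part of Malat1 was altered, was not given in the sources used here. Values are log2 signals, so a difference of 1 is a 2-fold difference in signal. A gene counted as measured at or above each array's median, called the floor here (5.44 for the knock-out, 5.39 for the wildtype), and the brightest probe set stood for the gene. With 1 array per genotype no difference has a replicate check and none carries a p-value.

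Cells divide by building proteins for mitosis late in each cycle and destroying them at its end. Cyclin A and cyclin B with the kinase Cdk1 start mitosis once Cdc25 phosphatases remove an inhibitory mark, Plk1 and the Aurora kinases build the spindle, and the checkpoint holds anaphase until all kinetochores are attached. The anaphase-promoting complex (APC/C) with Cdc20 then marks cyclin B for destruction. Genes of this group are transcribed together through the MuvB complex, which binds a promoter element called the cell cycle genes homology region and works with Mybl2 and Foxm1 in cycling cells. Fibroblast cultures lose such cycling with passage, and the levels of these genes in a culture can depend on its share of dividing cells. On arrays of whole cultures, fewer dividing cells and less RNA per cell cannot be told apart.

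Malat1 itself read 4.53 on the knock-out array, below the floor, and 9.80 on the wildtype array, at least 20.6-fold lower. The arrays also differed in sex-linked RNA. Xist read 11.49 and 4.50 on the knock-out and wildtype arrays, and the Y-linked Eif2s3y read 2.81 and 8.57, so sex-linked expression and genotype cannot be told apart. All 12 fibroblast markers examined were measured on both arrays, with a median difference of -0.31 and a range of -0.95 for Col1a1 to 0.74 for Dcn. The log2 of their summed signal was 16.37 on the knock-out array and 16.57 on the wildtype array. Markers of other cell types differed between the arrays as well, some in both directions. The median difference was -0.40 for 6 of 6 leukocyte genes measured on both arrays, with a log2 of the summed signal of 11.38 on the knock-out array and 11.72 on the wildtype array. With the summed signals in the same order and on the same scale, it was 0.50 for 4 of 6 epithelial genes (9.63 and 9.12), 0.47 for 3 of 6 endothelial genes (9.68 and 8.83) and 0.28 for 5 of 6 neural genes (11.18 and 10.94). The endothelial genes ran from 0.11 to 1.47, the highest being Emcn. Neural genes ran from -0.34 for Stmn2 to 0.86 for Gap43. For 4 of 6 skeletal muscle genes it was -0.07 (9.12 and 9.04), with a range of -0.60 to 0.44. Defining markers below the floor on both arrays were Pecam1, Cdh5 and Tie1 of endothelium, Cdh1 of epithelium, Myod1 and Myog of muscle and Sox2 of neural progenitors. The part of these cell types in the mitosis values was not tested.

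Mitosis genes read slightly lower in the knock-out MEFs, and by small amounts. Of the 40 measured genes 35 were lower on the knock-out array, where 59.8% of all 11294 measured genes were lower. Their median log2 difference was -0.19 with a middle 50% of -0.29 to -0.06, against a median of -0.05 and a middle 50% of -0.18 to 0.08 for all measured genes. The gene with the largest difference was 1.48-fold lower and none passed 1.5-fold in either direction. The 35 include Cdk1, Cdc20 and Hmmr, whose signals differed by 0.01 or less. The share of all measured genes that were lower varied with brightness. It was 43.7% at a mean signal of 5 to 7, which held 4 members, and 71.4% at 8 to 9, which held 12.

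A difference of 25%, with the brighter signal at least 25% above the dimmer one (0.32 on the log2 scale), was set as a mark. It was passed by 6 mitosis genes that were lower on the knock-out array, which is 15% of the 40 against 9.91% of all measured genes. These were Cdc25c, Plk1, Kif11, Bub1, Ttk and Top2a. No mitosis gene passed the mark in the higher direction, against 5.96% of all measured genes. With 40 genes, the share past the mark was not far from that of the whole array. The share of genes below 0 stood farther from that of the whole array, which was not matched to the members in brightness. Most of the differences below 0 were small. Other scalings of the arrays left 30 of 40 lower (arrays centred on their median difference), 29 (quantile normalization) or 30 (loess centring), where 47.6%, 44.8% and 46.6% of all measured genes were lower.

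**Figure D1:**
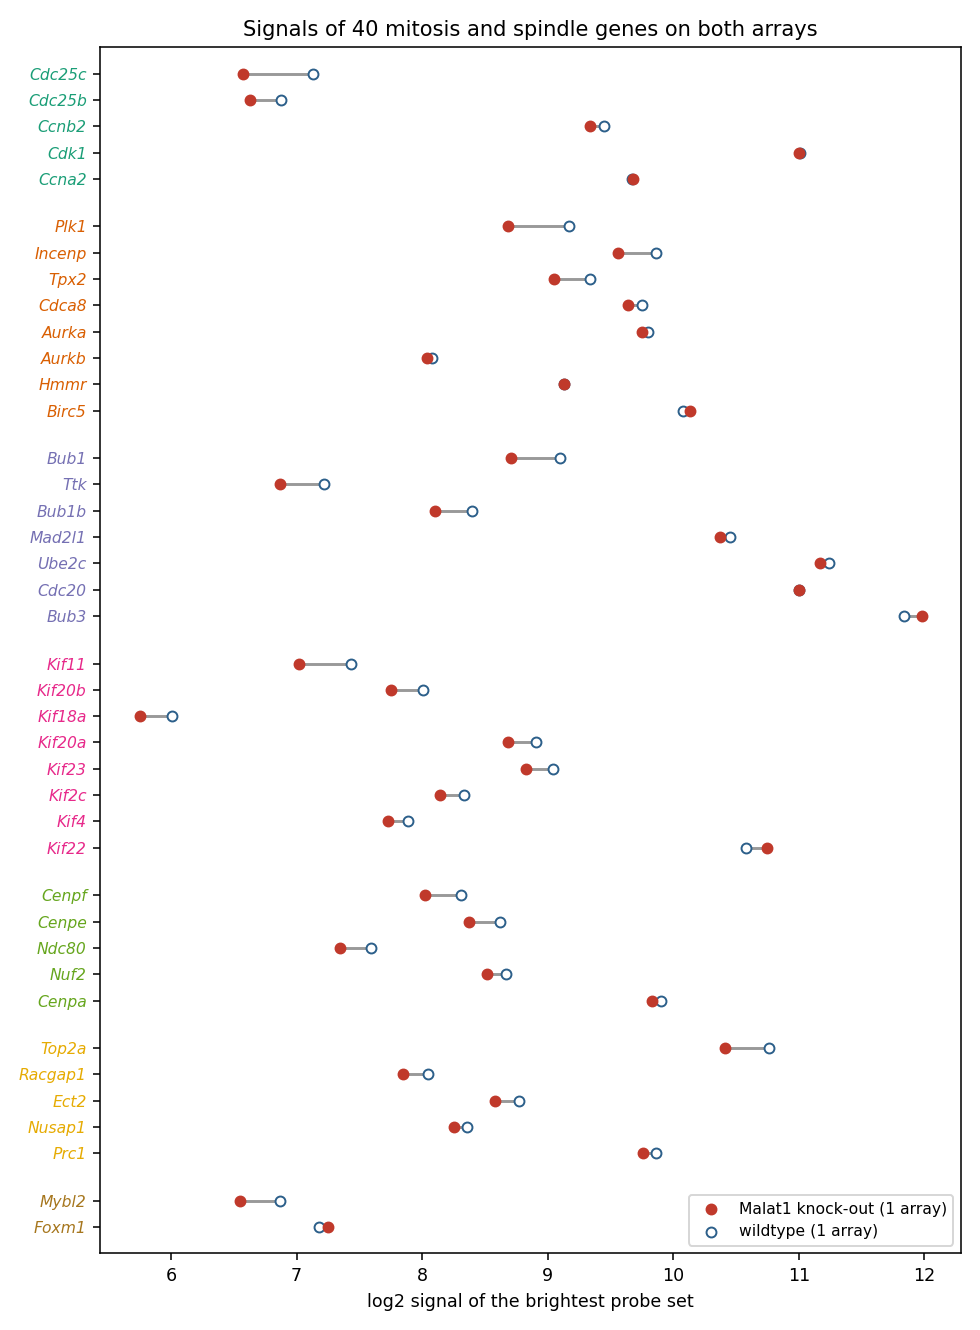
Log2 signal of the brightest probe set (x axis) of the 40 measured mitosis and spindle genes, in 7 groups of function marked by the colour of the names, on the Malat1 knock-out array (filled) and the wildtype array (open). The knock-out point lies left of the wildtype point for 35 genes and right of it for Ccna2, Birc5, Bub3, Kif22 and Foxm1.

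Promoters of these genes are shown because most carry the elements through which mitotic genes are known to be transcribed together. RefSeq promoters of GRCm38.p6, 250 bases before to 50 bases after the start of transcription, were found for 35 of the 42 genes, as 38 promoters. They were not found for Aurkb, Ccna2, Cdc25c, Foxm1, Incenp, Kif20a and Tpx2. The cell cycle genes homology region was searched as TTTGAA and the box of the factor NF-Y as CCAAT, each on both strands, and 1 match of the first shared a base with a match of the second. The homology region was present in 28 of the 38 promoters (73.7%), against 17.9% of all 32851 promoters in the table. The NF-Y box was also present in 28 (73.7% against 37.4%), and 24 held both (63.2% against 6.95%). A match is a run of letters and no measurement of binding.

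The promoters printed are those of the 4 genes with the largest difference among those that hold both motifs. They are written 5′ to 3′ on the strand of the gene, with each TTTGAA and CCAAT, or its reverse complement TTCAAA or ATTGG, in capitals. Plk1 lies at chr7:122159185-122159484 on the plus strand, Kif11 at chr19:37376132-37376431 on the plus strand, Ttk at chr9:83834439-83834738 on the plus strand and Top2a at chr11:99024140-99024439 on the minus strand.
Plk1: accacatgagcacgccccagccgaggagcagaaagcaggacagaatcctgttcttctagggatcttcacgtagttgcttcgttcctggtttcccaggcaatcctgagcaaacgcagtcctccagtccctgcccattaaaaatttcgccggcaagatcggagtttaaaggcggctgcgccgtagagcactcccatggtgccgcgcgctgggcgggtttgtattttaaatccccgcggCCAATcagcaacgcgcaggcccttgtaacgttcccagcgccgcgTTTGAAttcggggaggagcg
Kif11: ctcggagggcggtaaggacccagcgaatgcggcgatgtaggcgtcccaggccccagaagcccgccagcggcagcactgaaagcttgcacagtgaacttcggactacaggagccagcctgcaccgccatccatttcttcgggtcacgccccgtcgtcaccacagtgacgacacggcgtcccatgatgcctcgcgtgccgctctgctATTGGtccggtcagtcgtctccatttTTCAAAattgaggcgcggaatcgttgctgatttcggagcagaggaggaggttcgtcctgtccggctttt
Ttk: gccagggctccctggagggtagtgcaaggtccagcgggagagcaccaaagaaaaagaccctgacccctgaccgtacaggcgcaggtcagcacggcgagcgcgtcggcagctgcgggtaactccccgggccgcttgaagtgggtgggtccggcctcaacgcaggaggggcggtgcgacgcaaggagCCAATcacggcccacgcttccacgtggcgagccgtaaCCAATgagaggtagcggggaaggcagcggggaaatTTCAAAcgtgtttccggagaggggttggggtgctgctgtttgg
Top2a: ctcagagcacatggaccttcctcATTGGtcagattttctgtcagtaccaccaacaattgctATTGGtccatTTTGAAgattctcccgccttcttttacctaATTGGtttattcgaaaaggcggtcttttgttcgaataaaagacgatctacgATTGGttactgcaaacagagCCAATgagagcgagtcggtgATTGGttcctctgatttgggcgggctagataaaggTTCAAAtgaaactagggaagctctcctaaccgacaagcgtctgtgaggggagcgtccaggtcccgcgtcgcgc

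Counting the first transcribed base as 0, the homology region began at position 30 in Plk1, -19 in Kif11 and 7 in Ttk, and at -179 and -23 in Top2a. The NF-Y box stood upstream of it in Plk1, at -14, in Kif11, at -45, and in Ttk, at -65 and -28. Top2a held 6 NF-Y boxes, between -227 and -58. Over all member promoters the 36 matches of the homology region had a median position of -10 and the 64 NF-Y boxes one of -67.5. Matches shared by the overlapping promoters of Bub3, Ect2 and Prc1 were counted once for each promoter.

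Genes with and without these motifs overlapped in their differences. The 24 measured genes with a homology region had a median difference of -0.17, ranging from -0.49 to 0.17, and the 9 without had a median of -0.25, ranging from -0.39 to 0.05. With both motifs the median was -0.12 over 21 genes, of which 19 were lower. Without both it was -0.24 over 12 genes, of which 11 were lower, against 59.8% of all measured genes. Bub3 and Kif22 hold both motifs and were higher on the knock-out array by their brightest probe sets, though not by their other measured ones. Mybl2 and Kif18a, which were lower, hold neither motif in this window.

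**Figure D2:**
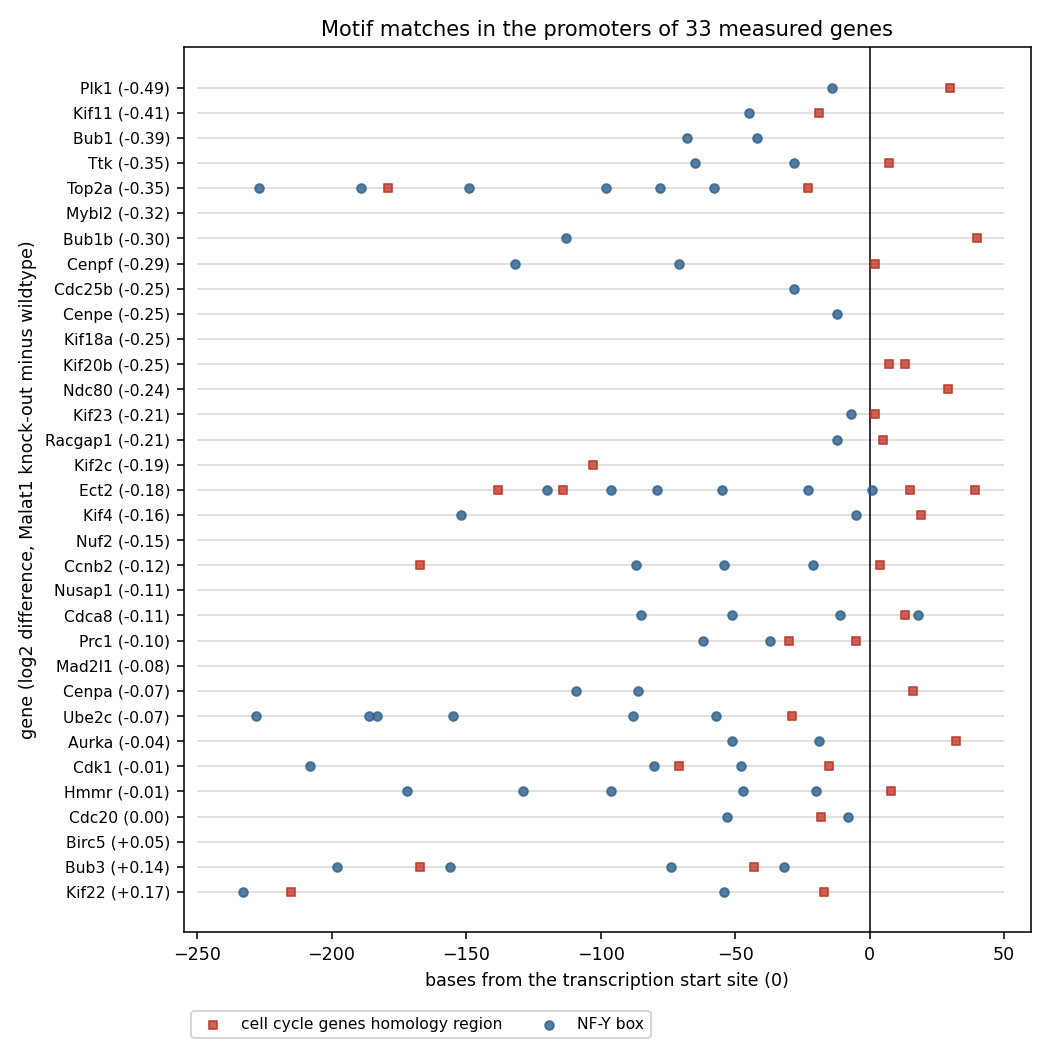
Matches of the cell cycle genes homology region (squares) and the NF-Y box (circles) by distance in bases from the transcription start site (x axis) for the 33 measured genes with a promoter in the table, ordered from the most negative log2 difference, knock-out minus wildtype (in brackets). Where Bub3, Ect2 and Prc1 have 2 overlapping promoters both are drawn on 1 line. Matches sit near the start at both ends of the order.

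The counts of lower genes by function group stand beside 59.8% of all measured genes lower, and the group medians beside -0.05. The switch into mitosis was represented by 5 measured genes, of which 4 were lower on the knock-out array, with a median difference of -0.12. Cdk1, the kinase that drives mitosis, read 11.00 on the knock-out array and 11.01 on the wildtype array. Ccna2, encoding cyclin A2, read 9.68 and 9.67, and Ccnb2, encoding cyclin B2, read 9.34 and 9.45. The second Ccna2 probe set read 9.15 and 9.26, a difference of -0.11. Ccnb1, the other main cyclin partner of Cdk1, has no value here. The phosphatases that activate Cdk1 had more negative differences on their brightest probe sets. Cdc25c read 6.57 on the knock-out array and 7.13 on the wildtype array, 1.48-fold lower, and 1.9% of all measured genes had a more negative difference. Its other measured probe set read 6.69 and 6.75, a difference of -0.06, so the probe sets of Cdc25c disagree, and the brighter one is of a type (ending in x) that can pick up related transcripts. Cdc25b, a phosphatase active at the entry into mitosis, read 6.63 and 6.88, a difference of -0.25.

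Of 8 measured mitotic kinases and their partners 7 were lower, with a median of -0.08. Plk1, which drives centrosome maturation, spindle assembly and cytokinesis, read 8.68 on the knock-out array and 9.17 on the wildtype array from its only probe set, 1.40-fold lower. That difference was below those of all but 3.0% of measured genes. Aurka, the kinase of spindle poles, read 9.75 and 9.80, and its activator Tpx2 read 9.05 and 9.34. Tpx2 had 3 further measured probe sets, which differed by -0.12, 0.22 and 0.55, so its direction depends on the probe set. Hmmr, a spindle protein that works with Tpx2, read 9.13 on both arrays, while 3 of its dimmer probe sets differed by -0.29, -0.29 and -0.46 and the last by 0.02.

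The chromosomal passenger complex corrects faulty attachments of chromosomes, and its 4 subunits ran from lower to slightly higher. Incenp, the scaffold, read 9.56 on the knock-out array and 9.86 on the wildtype array, a difference of -0.30, and its other 2 measured probe sets differed by -0.21 and -0.35. Cdca8, borealin, read 9.64 and 9.75, with other probe sets at 0.05 and -0.30. Birc5, survivin, was higher by 0.05, at 10.13 and 10.08. Aurkb, the kinase of the complex, read 8.04 and 8.08 on its brighter probe set and 7.32 and 7.90 on its dimmer one, a difference of -0.59. Both Aurkb probe sets are of types that can pick up related transcripts.

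Spindle checkpoint and APC/C genes had a median of -0.08, with 6 of 7 lower. The kinases of the checkpoint stood at its lower end. Bub1, which recruits the checkpoint to kinetochores, read 8.71 on the knock-out array and 9.10 on the wildtype array, 1.31-fold lower. Ttk, the Mps1 kinase that starts checkpoint signalling, read 6.87 and 7.22, 1.28-fold lower, and Bub1b, encoding BubR1, read 8.10 and 8.40, a difference of -0.30. The second probe sets of Bub1 (4.23 and 5.35) and Ttk (3.97 and 4.57) did not reach the floor on either array. Bub1b had a second measured probe set at -0.13. The other checkpoint and APC/C genes had smaller differences on their brightest probe sets, and those with several probe sets did not agree in sign. Mad2l1, which binds and blocks Cdc20, read 10.37 and 10.45, and Cdc20 itself 11.00 on both arrays, with its other 2 probe sets at -0.18 and 0.02. Ube2c, the ubiquitin-conjugating enzyme of the APC/C, read 11.17 and 11.24. Bub3, the partner of Bub1 and BubR1, was higher by 0.14 on its brightest probe set, at 11.98 and 11.84, and read 8.09 and 8.12 on its other measured one, a difference of -0.03.

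The kinesins had a median difference of -0.22, with 7 of 8 measured genes lower. Kif11, the Eg5 motor that pushes the spindle poles apart, read 7.02 on the knock-out array and 7.43 on the wildtype array, 1.33-fold lower, and its other measured probe set differed by -0.20. The dimmest Kif11 probe set, at 5.04 and 4.81, did not reach the floor. Motors of the central spindle and of cytokinesis lay close together. Kif20a read 8.68 and 8.91, Kif20b 7.75 and 8.01, and Kif23 8.83 and 9.04, differences of -0.24, -0.25 and -0.21. Kif4, an X-linked chromokinesin, read 7.73 and 7.89, a difference of -0.16. A dimmer Kif23 probe set read 5.54 and 6.19, a difference of -0.65. Among motors that act on microtubule ends and chromosome alignment, Kif18a read 5.75 and 6.01, just above the floor, and Kif2c read 8.14 and 8.33, with 2 other probe sets at -0.21 and -0.13. Kif22, which pushes chromosome arms towards the spindle equator, was the exception at 10.75 and 10.58, a difference of 0.17. Its other 2 probe sets differed by -0.39 and -0.15, so that its direction depends on the probe set as well.

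All 5 centromere and kinetochore genes were lower, with a median of -0.24. Cenpf read 8.02 on the knock-out array and 8.31 on the wildtype array, and Cenpe, a kinetochore motor, read 8.37 and 8.62. Ndc80 and Nuf2, which form the microtubule-binding arm of the kinetochore, read 7.35 and 7.59 (-0.24) and 8.52 and 8.67 (-0.15). Cenpa, the histone H3 variant that marks centromeres, read 9.83 and 9.90, and its sign turned under quantile normalization, where its difference rounded to 0. The 5 genes of the midzone, cytokinesis and chromosome structure were all lower too, with a median of -0.18. Top2a, the topoisomerase that untangles sister chromatids, read 10.41 and 10.76, 1.27-fold lower, and its other measured probe set differed by -0.30. Its dimmest probe set, at 4.15 and 3.85, did not reach the floor. Racgap1, which with Kif23 forms the centralspindlin complex, read 7.85 and 8.05, and its partner in cytokinesis Ect2 read 8.58 and 8.77, differences of -0.21 and -0.18. Nusap1, which binds spindle microtubules, read 8.25 and 8.36, and the microtubule bundler Prc1 read 9.76 and 9.86.

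The transcription factors of the programme differed from each other. Mybl2, which binds the MuvB complex, read 6.55 on the knock-out array and 6.87 on the wildtype array, 1.24-fold lower, and its other probe set read 5.54 and 5.83. Foxm1, which joins later in the cycle, read 7.25 and 7.18 on its brightest probe set, a difference of 0.07. The other 2 measured Foxm1 probe sets differed by -0.17 and -0.38. The brightest Foxm1 value is therefore not shared by the dimmer ones.

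**Figure D3:**
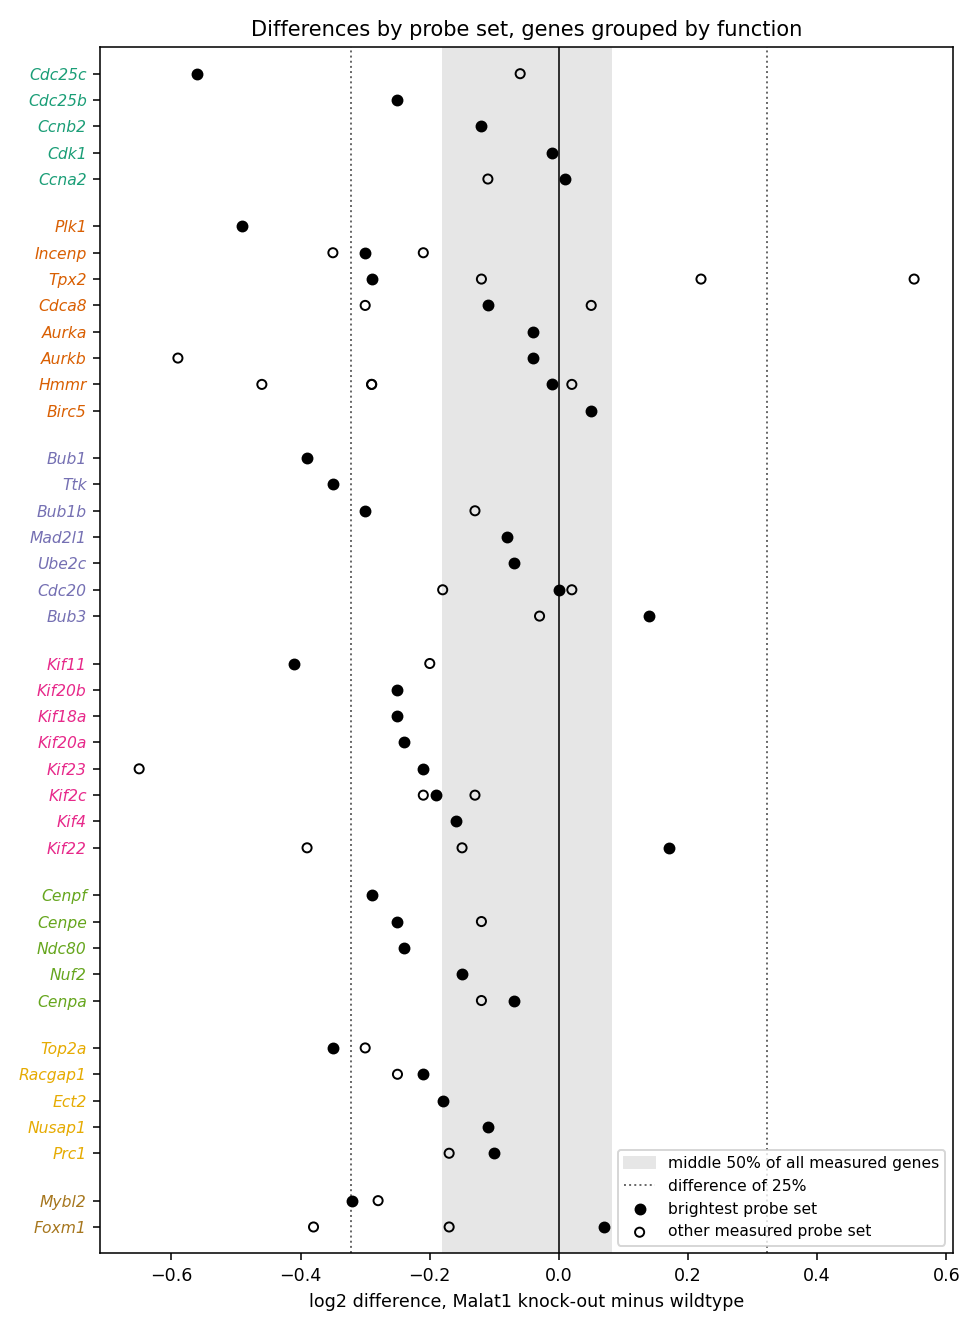
Log2 difference, knock-out minus wildtype (x axis), of every member probe set measured on both arrays, with the brightest of each gene filled and the others open, genes grouped by function as in the plot of signals. Dotted lines mark a difference of 25% and the grey band the middle 50% of all measured genes (-0.18 to 0.08). Most points lie left of 0, and the probe sets of Tpx2, Kif22, Aurkb, Cdc25c, Hmmr and Foxm1, among others, lie far apart.

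The probe sets of a gene gave a limited check of these differences. Of the 96 probe sets of the members, 72 were measured on both arrays, and 62 of those were lower on the knock-out array, against 61.7% of all measured probe sets. Of the 32 that are not the brightest of their gene 27 were lower, with a median of -0.18. The share lower among such probe sets of the whole array was not computed. Of the 24 member probe sets below the floor on both arrays 9 were lower (37.5%), with a median of 0.07. Among all probe sets below the floor 29.7% were lower, with a median of 0.12. For 21 genes more than 1 probe set was measured, and in 13 of them all were lower, while in 8 they pointed both ways. The share of such genes of the whole array with all probe sets lower was not computed. Within a gene, the differences of its measured probe sets had a pooled SD of 0.209 for these 21 genes and of 0.199 for 4881 genes of the whole array. Such probe sets read the same RNA and do not stand in for replicates.

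The difference between members and other genes varied with brightness. Among genes with a mean signal of 7 to 8 the members had a median of -0.24 (7 genes) against -0.11 for all measured genes. At 8 to 9 the members had -0.22 (12 genes, all lower) against -0.10, where 71.4% of all measured genes were lower. At 9 to 10 the medians were -0.10 (9 genes) and -0.07, and from 10 to 13 both were -0.01 (8 members). Of the members 6 of 7 were lower at 7 to 8, 8 of 9 at 9 to 10 and 5 of 8 from 10 on. In those 3 ranges 69.7%, 67.3% and 53.8% of all measured genes were lower. The 4 members below 7, Cdc25c, Cdc25b, Mybl2 and Kif18a, had a median of -0.28 where all measured genes had 0.04. Among the 8 brightest members, Cdk1, Cdc20 and Ube2c differed by less than 0.1 and Top2a by -0.35, one of the 6 differences past the 25% mark.

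**Figure D4:**
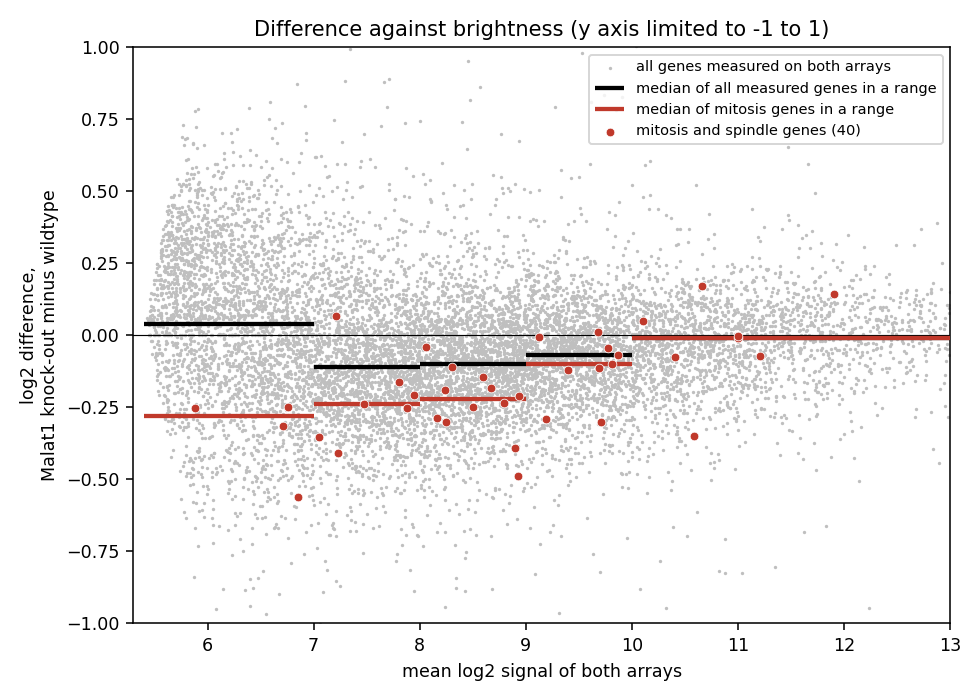
Log2 difference, knock-out minus wildtype (y axis, limited to -1 to 1), against the mean log2 signal of both arrays (x axis) for the 40 mitosis genes (red) and all measured genes (grey). Horizontal bars give the median in ranges of brightness. The red and black bars are apart below 9 and together from 10 on, where both are at -0.01.

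Scaling of the arrays moved every median towards 0, as it moved that of all measured genes, -0.05 as deposited. The median of the 40 members was -0.12 with the arrays centred on their median difference, -0.07 after quantile normalization and -0.08 after loess centring on brightness. Of the 40 genes 29 were lower under all 4 scalings, 5 were higher under all 4 and 6 turned sign under at least 1 (Cdk1, Aurka, Aurkb, Cdc20, Cenpa and Hmmr). Under each single scaling 44.8% to 59.8% of all measured genes were lower, and their share lower under all 4 was not computed. The 25% mark was passed in the lower direction by 4, 2 and 2 members under the other scalings, against 6.61%, 5.59% and 5.96% of all measured genes. Cdc25c and Plk1 were the 2 genes past it under all 4, with Plk1 at -0.43, -0.39 and -0.40 and Cdc25c at -0.50, -0.47 and -0.47 under the other scalings. Kinesins (-0.16, -0.12 and -0.13) and centromere genes (-0.18, -0.11 and -0.12) kept the most negative medians among the groups, and the kinases and their partners had the values -0.02, -0.02 and -0.01. That last group depended on the choice of probe sets, with a median of -0.08 from the brightest, -0.16 from the mean of measured probe sets, -0.16 from the median of all and -0.21 without those ending in _x_at or _s_at. The kinesins had -0.22, -0.24, -0.18 and -0.22 under the same 4 choices.

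**Figure D5:**
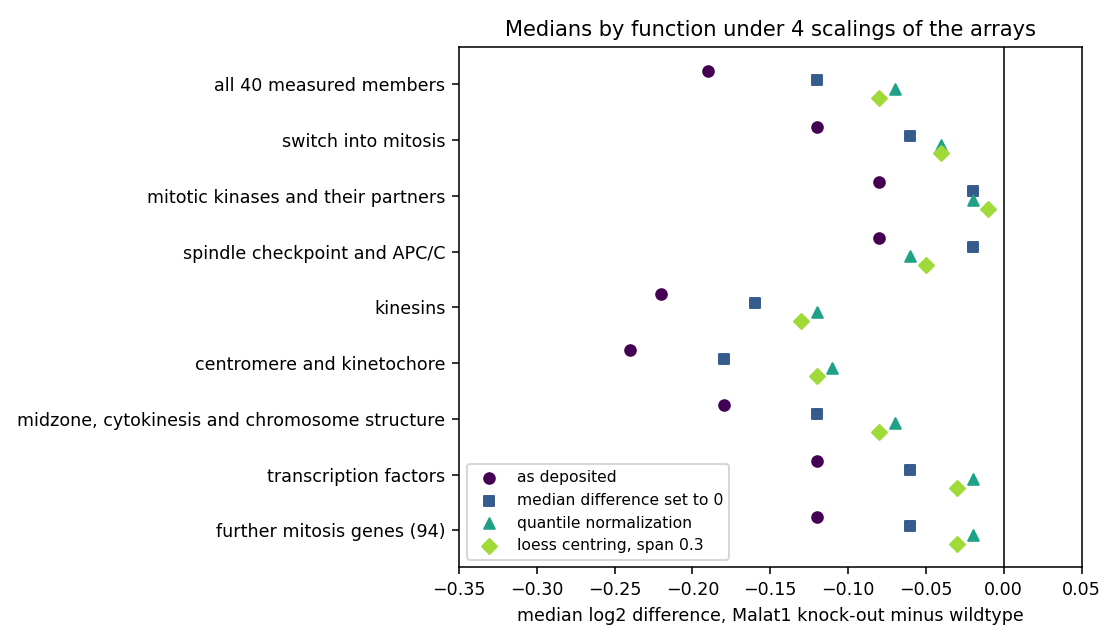
Median log2 difference, knock-out minus wildtype (x axis), of the 40 measured members, of each of their 7 function groups and of 94 further mitosis genes, with the values as deposited and under 3 other scalings. Every median is below 0, and those as deposited lie farthest from 0.

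Further genes of mitosis outside the 42 were compared from a list of 99 names, of which 96 genes were matched and 94 measured on both arrays. Of the 94, 73 were lower, with a median of -0.12, and the 25% mark was passed by 17 in the lower and 3 in the higher direction. Of all measured genes 59.8% were lower, and 9.91% and 5.96% passed the mark. With centring, quantile normalization and loess their median was -0.06, -0.02 and -0.03, where that of all measured genes was 0.01, 0.02 and 0.01.

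The lowest of them were Ncapd2, a condensin subunit that compacts chromosomes, at 8.17 on the knock-out array and 8.68 on the wildtype array, and Kntc1, a kinetochore protein of the checkpoint, at 7.80 and 8.30. Ckap2l, a spindle protein, read 7.71 and 8.20. The highest were Nsl1, of the Mis12 kinetochore complex, at 7.08 and 6.63, a difference of 0.45, and Pkmyt1, a kinase that inhibits Cdk1, at 8.48 and 8.11. Cit, a kinase of cytokinesis, read 8.36 and 8.01. None of the 94 passed 1.5-fold, which 1.61% of all measured genes passed in the lower and 0.832% in the higher direction. Mki67, the common marker of cycling cells, named after its value was seen, read 9.92 and 10.36, a difference of -0.44.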

How the data were processed

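The values the authors deposited for 2 Affymetrix Mouse430_2 arrays were taken as log2 signals, a scale inferred from their range of 2.09 to 14.71. How they were summarised and normalized was not given in the sources used here. Per the labels' protocols, 100 ng of total RNA was labelled with biotin for each array. The genotype in the labels set the groups. Of 45037 probe sets besides 64 controls, 34945 had 1 gene symbol in the platform's annotation, 932 had several and 9160 none. Only those with 1 symbol were used, and no symbol changed through RefSeq identifiers.

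The probe set with the highest mean stood for its gene, which counted as measured at or above each array's 50th percentile. Members and lists were chosen with earlier results of these data known, and the 25% mark was taken because no member had passed 1.5-fold. Values on both arrays were given for the members, with all probe sets of the 6 with the largest difference; among the further genes, the 3 with the largest difference each way were named; the printed promoters are the 4 with the largest difference that hold both motifs. Other probe sets, and Mki67, were named after their values were seen. The number of arrays limits the precision. Recovery of known differences, and removal of a constant shift by the scalings, were tested on simulated data (Python 3.11.15, pandas 2.3.3, statsmodels 0.14.6). The simulated arrays had no trend with brightness, and their share of genes past the mark is not given here. Alternatives changed the scaling, floor, added constant, probe set rule and size.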

Additional observations from a re-analysis of the deposited data

How the results depend on the processing

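No paired analysis was possible because there was a single array of each genotype. The medians of the members, of the further genes and of the 7 function groups stayed below 0 in each alternative that gave a value. The member median ran from -0.19 as deposited to -0.07 after quantile normalization. The 6 genes lower by the 25% mark became 2 after quantile normalization and 2 after loess centring, and the cause was not tested. They became 3 with the floor at the 75th percentile, where 32 members were measured. Taking the median of the probe sets of a gene gave 3, and the mean of its measured ones gave 4. A mark of 15% gave 19 lower genes and one of 50% gave 0, against 1.61% of all measured genes for the mark of 50%. The share of all measured genes was not computed for the mark of 15%, that floor, or the median or mean of probe sets. A floor at the 40th percentile, or none, let in 1 gene higher by the 25% mark, the dim Kif15. Of 431 differences of single genes under an alternative, 18 moved by more than the spread between probe sets of 1 gene (0.199), among them Cdc25c at -0.06 once probe set names ending in _x_at or _s_at were left out. With the mean over measured probe sets Tpx2 was at 0.09 and Kif22 at -0.12. The floor at the 75th percentile left no measured transcription factor. Dim probe sets limit what can be said of Kif15 and Kif18a.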
